A study of Mus musculus with 8 samples.

Results

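The Slc25a genes encode the mitochondrial carrier family, and their transcripts were examined in the aorta of mice with Marfan syndrome at 12 weeks and at 2 years of age. Members were all gene symbols of the count tables made of Slc25a followed by a number, which gave 47 of the 25526 symbols listed. The mice were males with Fbn1 C1041G on 1 chromosome and a normal Fbn1 copy on the other, a missense change in fibrillin-1. Both age groups carry it, and no group without it was analysed here. RNA of the aorta was sequenced from 4 mice at 12 weeks and from 4 mice at 2 years. Per the design text, aneurysms of this model grow at 12 weeks and have stopped growing at 2 years. The labels give neither the segment of the aorta nor its dissection.

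Mitochondrial carriers sit mostly in the inner membrane, which small charged molecules cannot cross alone. They exchange ADP for ATP, bring in phosphate, and pass carboxylates, amino acids, acylcarnitines, nucleotides, cofactors, iron and glutathione between cytosol and matrix. Smooth muscle cells of the aortic wall and the immune cells that enter it both depend on this traffic. Ucp1, Ucp2, Ucp3, Mtch1 and Mtch2 belong to the same protein family under other symbols and are described here as relatives, not members.

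Library totals ranged from 16251986 to 33880690 counts. The smooth muscle markers summed to between 31777 and 37749 CPM (counts per 1e6 counts of the TMM-scaled library) at 12 weeks and between 17952 and 27014 CPM at 2 years, so the labelled tissue was recognisable in every library. Of the 10 smooth muscle markers 7 were called lower at 2 years, and 7 with the length-GC offset described below. Markers of other cells moved with age too. Of macrophage genes 10 of 12 tested were higher at 2 years, as were all 10 T and NK cell genes tested. All 9 B and plasma cell genes and all 8 red blood cell genes tested were higher, and 6 of 11 heart muscle genes were lower. Beside these and the marker counts below, 25.8% of all genes tested were higher and 26.2% lower. Heart muscle markers summed to 1428 CPM in 12 weeks replicate 3 against 275 to 328 CPM in the other 12-week libraries. Skeletal muscle markers summed to 288 CPM in 12 weeks replicate 2 against 6.29 to 109 CPM in the other 12-week libraries. Libraries also differed in how level depended on transcript length, with slopes (change in log2 CPM per doubling of length) of 0.125 to 0.261 at 12 weeks and -0.315 to -0.107 at 2 years. Their part in the results below was not tested except where values with a length-GC offset are given. In bulk tissue, fewer cells of a type and less RNA per cell cannot be told apart.

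Of the 47 members, 40 passed the filter on low counts. Among these, 9 were higher and 9 lower at 2 years (edgeR quasi-likelihood test, Benjamini-Hochberg adjusted p below 0.05 over all 13978 genes tested), 22.5% in each direction. Across all genes tested 25.8% were higher and 26.2% lower, so the family changed about as often as other genes. The median log2 fold change (2 years over 12 weeks) was 0.00 over the members and -0.01 over all genes tested. In each of the 18 called members the 2 groups of libraries did not overlap, and no other tested member had groups that did not overlap. Without overlap were 24.3% of all genes tested on the higher side and 25.3% on the lower side. The largest differences were decreases: Slc25a27, Slc25a37, Slc25a43 and Slc25a42 fell by at least 2-fold, while the largest increase, that of Slc25a10, was 1.89-fold.

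**Figure D1:**
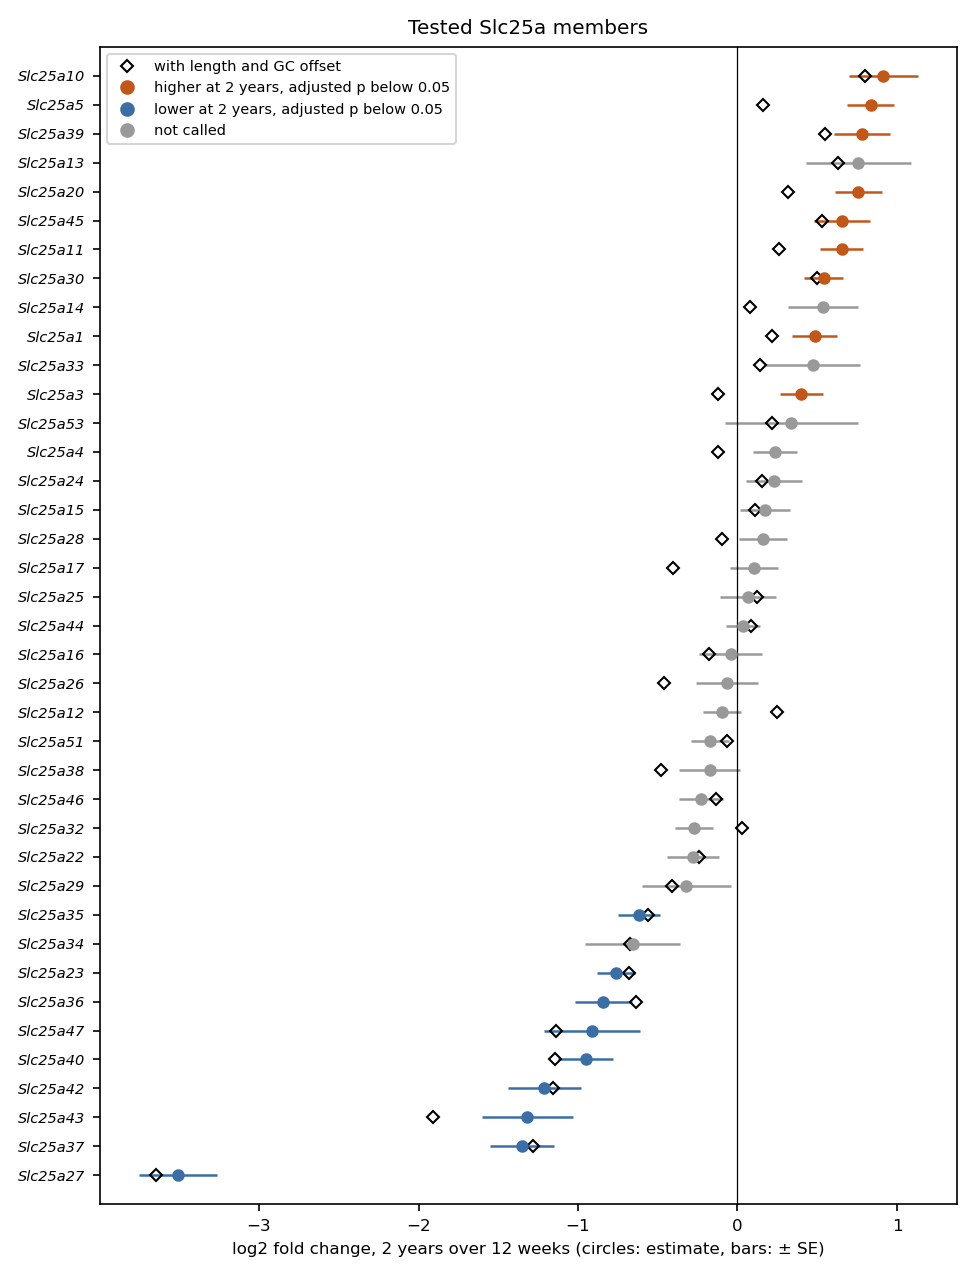
Log2 fold change, 2 years over 12 weeks, of 39 of the 40 tested members, with bars of ± SE; orange and blue circles are members called higher and lower, and open diamonds are the values with the length-GC offset. Slc25a27 stands far to the left at -3.51, and the diamonds of Slc25a5 and Slc25a3 lie well to the left of their circles.

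Per transcript length (counts per kb of the longest coding transcript, scaled to 1e6 per library), the ADP/ATP carrier Slc25a4 and the phosphate carrier Slc25a3 were the most abundant members at both ages. At 12 weeks Slc25a4 stood at 375 ± 39.0 (SD, n = 4), Slc25a3 at 313 ± 31.5, Slc25a5 at 222 ± 26.9 and Slc25a23 at 127 ± 6.65. At 2 years Slc25a4, Slc25a3 and Slc25a5 stood at 369.6 ± 69.5, 346 ± 69.4 and 332 ± 78.3, which lie within their spread of one another. The next in order at 2 years was Slc25a39 at 109 ± 13.2, and Slc25a23 had moved from rank 4 to rank 7. These 3 leading genes held 35.1 ± 0.974% of the members' counts, not scaled by length, in the young group and 43.5 ± 2.87% in the old one. The 2-sided exact permutation p was 0.0286, the smallest that 4 against 4 libraries allow. The 3 were picked by their level in these same data, and Slc25a3 and Slc25a5 were also called on their own. This unadjusted p, not among the planned tests, is therefore no separate support. With an offset for transcript length and GC, described below, none of the 3 was called, and their log2 fold changes were -0.12 for Slc25a3 and Slc25a4 and 0.16 for Slc25a5. The summed level of all 47 members was 1649 ± 75.0 CPM at 12 weeks and 1772 ± 171 CPM at 2 years and did not pass the test (exact permutation p = 0.286). Without the 3 leading genes it was 1070.1 ± 35.6 and 998 ± 68.5 CPM (exact permutation p = 0.114).

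The relatives of the uncoupling proteins gave the largest change of the family. Slc25a27, also called UCP4 and known from the nervous system, was at 7.69, 8.24, 7.77 and 6.53 CPM in 12 weeks replicates 1 to 4 and at 0.884, 0.512, 0.520 and 0.660 CPM in 2 years replicates 1 to 4. All 4 old libraries lay far below all 4 young ones. It fell 11.4-fold, a log2 fold change of -3.51 (SE 0.24, adjusted p = 1.94e-06), on counts of 161 to 214 per 12-week library and 8 to 31 per 2-year library. Over the 18 alternative settings its value stayed between -3.72 and -3.41. Of the 8 tested Schwann cell markers 2 were higher and 2 lower, and their sum was 274 to 316 CPM at 12 weeks and 239.8 to 339 CPM at 2 years. A sum follows its most abundant genes, and the part of nerve in the Slc25a27 difference was not tested.

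Slc25a30, the kidney mitochondrial carrier KMCP1, moved the other way. Its mean rose from 12.2 ± 0.879 to 17.8 ± 0.951 CPM (1.46-fold, adjusted p = 0.00335). Slc25a14, also called UCP5, was at 4.19 ± 1.14 and 6.06 ± 0.617 CPM and was not called (adjusted p = 0.0606). Under 5 of the 18 alternative settings it was called higher. Among the uncoupling proteins proper, Ucp2 was at 61.9, 50.1, 40.1 and 40.4 CPM in the 12-week libraries and at 179, 253, 246 and 225 CPM in the 2-year libraries. That is a rise of 4.69-fold (log2 2.23, SE 0.18, adjusted p = 3.91e-06), larger than that of any member. Ucp2 is abundant in macrophages and lymphocytes, and the summed macrophage markers went from 856 to 1185 CPM at 12 weeks to between 2847 and 4061 CPM at 2 years. None of the 12 macrophage markers was at 0 in all libraries, and their part in the Ucp2 difference was not tested. Ucp1, the heat-producing uncoupling protein of brown fat, varied from 1.12 to 60.0 CPM among 12-week libraries and from 5.25 to 26.6 CPM at 2 years (adjusted p = 0.846). Ucp3, of muscle and brown fat, was at 2.25 ± 2.33 and 1.48 ± 0.613 CPM (adjusted p = 0.408).

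Of the iron carriers 1 fell and the other was not called. Slc25a37, mitoferrin-1, which supplies iron for haem in developing red cells, was at 42.6, 31.3, 32.5 and 27.4 CPM at 12 weeks and at 11.4, 18.6, 11.6 and 10.8 CPM at 2 years. The highest old library stayed below the lowest young one. The fall was 2.55-fold (log2 -1.35, SE 0.20, adjusted p = 0.000257). Slc25a28, mitoferrin-2, the form of most other cells, was at 16.4, 12.4, 14.2 and 12.9 CPM at 12 weeks and at 13.5, 16.4, 18.6 and 14.03 CPM at 2 years, with overlapping groups (log2 fold change 0.16, adjusted p = 0.398). Per kb of transcript, mitoferrin-1 made up 46.7 ± 2.29% of the pair at 12 weeks and 23.5 ± 4.52% at 2 years, with no overlap. The exact permutation p was 0.0286, and 0.05 after Benjamini-Hochberg adjustment over the 7 shares fixed for related carriers. An adjusted p of 0.05 does not lie below 0.05. For the share of Slc25a22 with Slc25a18 no difference can arise, since Slc25a18 had 0 counts in all libraries; adjusted over the other 6 shares, an alternative chosen after seeing the data, the p of each of the 4 shares without overlap was 0.0429. Mitoferrin-1 has the longer transcript, and with the length-GC offset the log2 fold changes were -1.28 for Slc25a37 and -0.10 for Slc25a28. Red blood cell transcripts went in the opposite direction to mitoferrin-1: their sum was 473 to 754 CPM at 12 weeks and 1818 to 8029 CPM at 2 years. It was highest in 2 years replicate 2, which also had the highest Slc25a37 of the 2-year libraries. The part of blood in these values was not tested.

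The glutathione carriers divided. Slc25a39, which imports glutathione into mitochondria, was at 58.2, 36.8, 51.1 and 53.9 CPM at 12 weeks and at 73.0, 99.1, 100.3 and 71.5 CPM at 2 years. Every old library lay above every young one, a rise of 1.72-fold (log2 0.78, SE 0.17, adjusted p = 0.00326). Its relative Slc25a40 was at 17.2, 16.3, 16.6 and 14.2 CPM at 12 weeks and at 9.73, 8.96, 5.72 and 8.65 CPM at 2 years. It fell 1.94-fold (log2 -0.95, SE 0.17, adjusted p = 0.000871), again without overlap. The share of Slc25a39 in the pair, per kb, was 83.4 ± 3.21% at 12 weeks and 94.3 ± 1.85% at 2 years, without overlap (exact permutation p = 0.0286, adjusted p = 0.05). Slc25a38, which brings in glycine for the start of haem synthesis, was at 16.9 ± 3.89 and 15.01 ± 2.71 CPM and was not called (adjusted p = 0.464). With the length-GC offset it was called lower (log2 -0.48, adjusted p = 0.0191).

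The stretches just before the start sites of Slc25a39 and Slc25a40 are shown because these relatives moved in opposite directions. RefSeq promoter windows (build GRCm38.p6, not the build of the counts) were matched by symbol for 36 of the 47 members, and parts that overlap annotated exons were left out. Both sequences run 5′ to 3′ on the gene's strand. The Slc25a39 stretch is chr11:102407545-102407744 on the minus strand and the Slc25a40 stretch is chr5:8422717-8422837 on the plus strand.
Slc25a39: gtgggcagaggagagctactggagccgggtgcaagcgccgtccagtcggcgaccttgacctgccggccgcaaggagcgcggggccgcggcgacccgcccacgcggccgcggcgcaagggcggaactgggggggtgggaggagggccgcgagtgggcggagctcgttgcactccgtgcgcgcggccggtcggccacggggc
Slc25a40: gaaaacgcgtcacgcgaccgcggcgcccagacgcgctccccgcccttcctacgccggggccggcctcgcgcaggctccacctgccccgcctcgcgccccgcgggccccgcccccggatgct
Both are rich in G and C, at 78.0% and 81.0%. Neither holds, on either strand, the GABPA motif CCGGAAG, the ERR motif AAGGTCA, the CRE motif TGACGTCA, the NF-Y motif CCAAT or the E-box CACGTG, so the letters of both are in lower case. That says only that these letters are not in these windows.

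The ADP/ATP carriers exchange ADP from the cytosol for ATP made in the matrix. Slc25a4 (ANT1), the form of heart and muscle, was at 309, 249, 278 and 278 CPM at 12 weeks and at 344, 386, 295.3 and 286 CPM at 2 years. The groups overlapped and it was not called (log2 fold change 0.23, SE 0.14, adjusted p = 0.176). Slc25a5 (ANT2), the form of dividing and many other cells, was at 106, 96.5, 115 and 106 CPM at 12 weeks and at 210.0, 228, 159 and 160.3 CPM at 2 years. Its rise was 1.79-fold (log2 0.84, SE 0.15, adjusted p = 0.000766). The Slc25a5 transcript is short (1240 nt), and with the length-GC offset its value was 0.16 (adjusted p = 0.371), so this call depends on the offset. Slc25a4 made up 62.8 ± 1.82% of the pair per kb at 12 weeks and 52.9 ± 1.39% at 2 years, without overlap (exact permutation p = 0.0286, adjusted p = 0.05). The 2 transcripts differ in length, and the part of the libraries' length trend in this share was not tested. Of 8 dividing cell markers 5 were higher and 1 lower, and their sum was 25.02 to 63.9 CPM at 12 weeks and 48.0 to 71.4 CPM at 2 years. Slc25a5 and Slc25a4 are close in sequence, and how reads matching several genes were counted is not given in the sources used here, so their counts are uncertain.

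Slc25a3 carries phosphate for ATP synthesis. It was at 204, 177, 201 and 196 CPM at 12 weeks and at 266, 304, 221 and 235 CPM at 2 years, without overlap. The difference was small (log2 0.40, SE 0.13, adjusted p = 0.0268). It was not called without 12 weeks replicate 2, 3 or 4 or without 2 years replicate 1 or 2 (adjusted p 0.0563 to 0.0851), and it turned to -0.12 with the length-GC offset (adjusted p = 0.405).

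Among carriers that exchange ATP-Mg for phosphate under control of calcium, Slc25a23 fell and the others were not called. Slc25a23 was at 162, 178, 157 and 166 CPM at 12 weeks and at 100.3, 84.0, 107 and 99.1 CPM at 2 years. It fell 1.7-fold (log2 -0.76, SE 0.12, adjusted p = 0.000349), and all 18 alternatives called it. Slc25a24 was at 54.7 ± 8.86 and 64.0 ± 13.9 CPM (adjusted p = 0.296). Slc25a25 was at 13.6, 9.01, 15.1 and 16.1 CPM at 12 weeks and at 13.8, 14.7, 14.3 and 13.4 CPM at 2 years (log2 fold change 0.06, SE 0.18, adjusted p = 0.779). The share of Slc25a24 in this pair per kb was 80.4 ± 5.44% and 81.9 ± 3.57% (exact permutation p = 0.657).

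**Figure D2:**
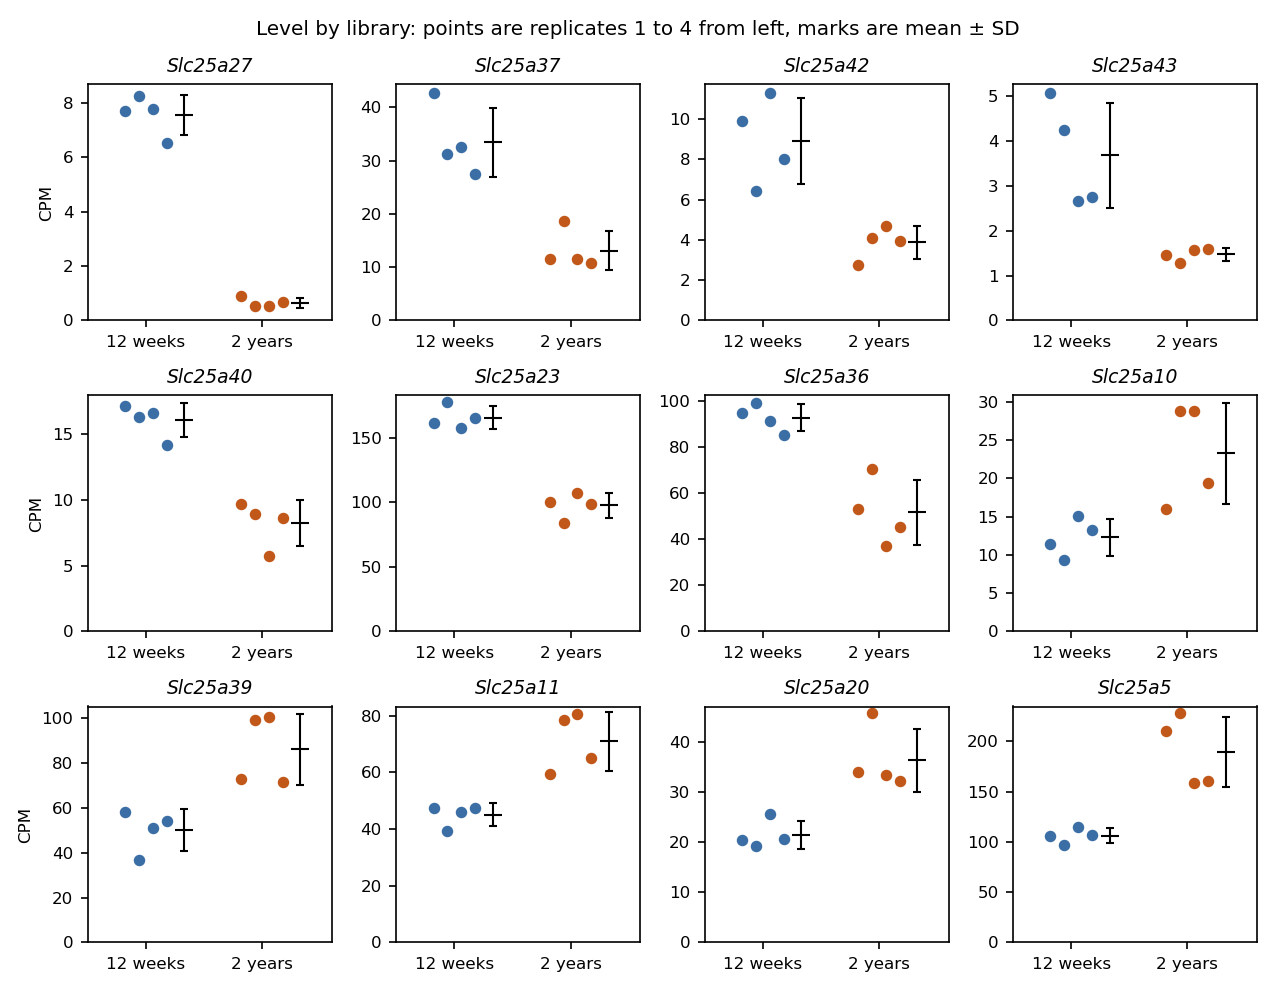
CPM of 12 members in each library, with replicates 1 to 4 from left to right and black marks for the mean ± SD (n = 4), blue at 12 weeks and orange at 2 years; each panel starts at 0. In all 12 panels the ages do not overlap, and Slc25a27 is below 1 CPM in every 2-year library.

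Of 4 carriers of di- and tricarboxylates 3 were tested and all 3 were called higher, where 25.8% of all genes tested were higher. Slc25a10, which exchanges malate and succinate for phosphate, was at 11.5, 9.40, 15.1 and 13.3 CPM at 12 weeks and at 16.03, 28.8, 28.8 and 19.4 CPM at 2 years. The lowest old library was just above the highest young one, and the rise was 1.89-fold (log2 0.92, SE 0.22, adjusted p = 0.00455). Slc25a11, the oxoglutarate-malate carrier of the malate-aspartate shuttle, was at 47.6, 39.1, 46.1 and 47.4 CPM at 12 weeks and at 59.5, 78.3, 80.6 and 64.9 CPM at 2 years (1.57-fold, adjusted p = 0.0021). Slc25a1, which exports citrate for fatty acid and sterol synthesis, was at 54.6, 42.3, 59.6 and 54.2 CPM at 12 weeks and at 69.1, 74.9, 86.5 and 64.1 CPM at 2 years (1.4-fold, adjusted p = 0.0147). All 3 had groups without overlap. With the length-GC offset Slc25a10 kept 0.80 (adjusted p = 0.0053), Slc25a11 was at 0.26 (adjusted p = 0.0443) and Slc25a1 was not called (0.21, adjusted p = 0.14). With the offset and the replicate number as a block, only Slc25a10 of these was still called (edgeR adjusted p = 0.106 for Slc25a11 and 0.198 for Slc25a1).

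The aspartate and glutamate carriers were not called. Slc25a12 (aralar), the aspartate-glutamate carrier of muscle and brain, was at 45.6, 38.5, 43.4 and 43.6 CPM at 12 weeks and at 39.8, 45.2, 34.5 and 40.3 CPM at 2 years (log2 fold change -0.10, SE 0.12, adjusted p = 0.513). Slc25a13 (citrin), its counterpart in liver, was scarce at 1.40, 1.58, 3.14 and 2.11 CPM at 12 weeks and 3.68, 4.69, 2.08 and 3.44 CPM at 2 years. Those groups overlapped (log2 0.76, SE 0.33, adjusted p = 0.0743). Without 12 weeks replicate 3, without 2 years replicate 3, or without both, Slc25a13 was called higher. The share of aralar in the pair per kb was 91.2 ± 2.96% and 85.2 ± 2.76% (exact permutation p = 0.0571, adjusted p = 0.08). Slc25a22, a glutamate carrier, was at 19.2 ± 3.86 and 15.8 ± 0.974 CPM (adjusted p = 0.166). The 4 enzymes of the malate-aspartate shuttle were all called higher, Got1 the most at 1.9-fold (11.1 ± 3.52 and 21.1 ± 4.21 CPM, adjusted p = 0.00497), and 0 of 4 were called with the length-GC offset. Of all genes tested 25.8% were higher, and 22.7% with that offset.

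Slc25a20, the carnitine-acylcarnitine carrier that admits fatty acids for oxidation, was at 20.4, 19.3, 25.6 and 20.6 CPM at 12 weeks and at 34.1, 45.8, 33.4 and 32.2 CPM at 2 years. All old libraries lay above all young ones, a rise of 1.69-fold (log2 0.76, SE 0.15, adjusted p = 0.0015). With the offset it was at 0.32 and not called (adjusted p = 0.0736). Of 17 genes of the carnitine shuttle and beta oxidation, 2 were higher and 1 lower, with a median log2 fold change of 0.00. Over all genes tested 25.8% were higher and 26.2% lower (22.7% and 28% with the length-GC offset). The electron-transfer flavoprotein subunit Etfb rose 1.79-fold and Hadh 1.34-fold (adjusted p = 0.00368 and 0.0491), and Cpt1c, a brain form of the carnitine palmitoyltransferase, fell 1.57-fold (adjusted p = 0.00997). With the length-GC offset 0 of the 17 were higher and 4 lower, with Etfb at 0.11 and Hadh at -0.02. The 17 genes summed to 1051, 1038, 1511 and 1118 CPM in 12 weeks replicates 1 to 4 and to between 1174 and 1277 CPM at 2 years. White fat markers summed to 276 to 1269 CPM at 12 weeks and 565 to 1503 CPM at 2 years. The highest heart muscle and white fat sums at 12 weeks were also in replicate 3, and their part was not tested.

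Of 9 carriers of cofactors and nucleotides, 2 fell and 0 rose, where 26.2% of all genes tested were lower and 25.8% higher. Slc25a42, which takes coenzyme A into the matrix, was at 9.91, 6.43, 11.3 and 7.99 CPM at 12 weeks and at 2.74, 4.09, 4.68 and 3.96 CPM at 2 years. It fell 2.32-fold (log2 -1.21, SE 0.23, adjusted p = 0.00117), without overlap. Slc25a36, a pyrimidine nucleotide carrier, was at 94.9, 99.4, 91.3 and 85.5 CPM at 12 weeks and at 53.3, 70.7, 37.3 and 45.5 CPM at 2 years. Its fall was 1.79-fold (log2 -0.84, SE 0.18, adjusted p = 0.00236). Slc25a33, the other pyrimidine nucleotide carrier, was at 3.16 ± 0.716 and 4.40 ± 1.85 CPM and was not called (adjusted p = 0.197). Slc25a33 made up 8.65 ± 1.959% of the pair per kb at 12 weeks and 18.8 ± 2.70% at 2 years, without overlap (exact permutation p = 0.0286, adjusted p = 0.05). Slc25a33 has the shorter transcript, and the part of the libraries' length trend in this share was not tested. The log2 fold changes of Slc25a33 and Slc25a36 were 0.48 and -0.84 without the offset and 0.14 and -0.63 with it. With the offset Slc25a36 was still called (edgeR adjusted p = 0.0095) and Slc25a33 was not. Slc25a51, the NAD carrier, was at 70.1, 68.9, 83.0 and 75.6 CPM at 12 weeks and at 67.0, 71.7, 67.3 and 58.4 CPM at 2 years (log2 fold change -0.17, SE 0.12, adjusted p = 0.245).

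The stretches before the start sites of Slc25a33 and Slc25a36 are shown because only Slc25a36 of this pair was called, in capitals where a motif was found. They are chr4:149774278-149774477 and chr9:97111158-97111291 of GRCm38.p6 (RefSeq), both on the minus strand, written 5′ to 3′ on the gene's strand.
Slc25a33: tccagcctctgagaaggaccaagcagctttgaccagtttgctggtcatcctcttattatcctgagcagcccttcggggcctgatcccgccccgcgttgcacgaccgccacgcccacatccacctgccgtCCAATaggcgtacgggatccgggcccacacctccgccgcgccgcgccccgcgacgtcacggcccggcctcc
Slc25a36: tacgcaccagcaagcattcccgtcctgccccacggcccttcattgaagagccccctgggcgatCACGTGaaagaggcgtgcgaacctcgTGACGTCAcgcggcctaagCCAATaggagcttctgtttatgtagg
Slc25a33 has the NF-Y letters CCAAT, which begin 81 bases before its start, and also holds the E-box CACGTG, 8 bases before its start and so in the bases left out of the printed stretch. Slc25a36 has the E-box CACGTG, the CRE motif TGACGTCA and CCAAT, which begin 187, 161 and 142 bases before its start. Over the 250 bases before the start, on either strand, CCAAT was found in 33.8% of all 32851 windows of the table and in 21 of the 46 windows of the 36 matched members. The CRE motif was in 1.55% of all windows and in 2 of the 46, those of Slc25a25 and Slc25a36. The E-box was in 6.02% of all windows and in 8 of the 46, the GABPA motif in 6.91% and in 6, and the ERR motif in 4.08% and in 1. A match is a description of letters, not a site of binding.

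Other carriers of this group were not called either. They carry coenzyme A or related molecules (Slc25a16), cofactors of peroxisomes (Slc25a17), S-adenosylmethionine (Slc25a26) and folate or FAD (Slc25a32). Their log2 fold changes lay between -0.27 for Slc25a32 and 0.10 for Slc25a17. Slc25a17 turned to -0.40 and was called lower with the length-GC offset (adjusted p = 0.0187).

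Carriers of ornithine and of basic and branched-chain amino acids showed 0 calls among 3 tested by edgeR. Over all genes tested 25.8% were higher and 26.2% lower. Slc25a44, the branched-chain amino acid carrier, was the steadiest of them, at 30.05 ± 0.710 and 30.8 ± 1.72 CPM (log2 fold change 0.03 with SE 0.10, adjusted p = 0.797). Slc25a15, the ornithine carrier of the urea cycle, was at 8.13 ± 0.719 and 9.17 ± 1.32 CPM (adjusted p = 0.369), and Slc25a29, a carrier of basic amino acids, at 6.45 ± 2.41 and 5.19 ± 1.12 CPM (adjusted p = 0.357). Slc25a46, which sits in the outer membrane and takes part in mitochondrial fusion and fission, was at 48.7 ± 5.20 and 41.6 ± 6.27 CPM (adjusted p = 0.189).

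Members whose substrates are unsettled gave 1 increase and 3 decreases among 6 tested, beside 25.8% higher and 26.2% lower over all genes tested. Slc25a43 was at 5.07, 4.24, 2.66 and 2.76 CPM at 12 weeks and at 1.46, 1.28, 1.56 and 1.597 CPM at 2 years. The young libraries were spread and the old ones close together, and it fell 2.49-fold (log2 -1.32, SE 0.28, adjusted p = 0.00263). With the length-GC offset its value was -1.91. Slc25a47, known from liver, was at 3.36, 1.89, 2.07 and 2.55 CPM at 12 weeks and at 1.03, 1.11, 1.495 and 1.63 CPM at 2 years (1.88-fold lower, adjusted p = 0.0246). It was not called without 12 weeks replicate 1 or 4 or without 2 years replicate 1 or 2 (adjusted p 0.0549 to 0.0733). Slc25a35 fell from 20.1 ± 2.18 to 13.1 ± 0.821 CPM (1.53-fold, adjusted p = 0.00217). Slc25a45 was the member that rose, from 8.95, 6.12, 6.47 and 7.502 CPM to 9.33, 11.6, 13.7 and 11.2 CPM (1.58-fold, adjusted p = 0.00867), and was not called without both replicates 3 (adjusted p = 0.0541). Slc25a34 varied widely at 2 years, from 15.4 CPM in replicate 2 to 54.9 CPM in replicate 3, against 48.8 to 60.4 CPM at 12 weeks (log2 -0.66, SE 0.30, adjusted p = 0.086). It was called lower under 5 of the 18 alternative settings. These were without 2 years replicate 3, without both replicates 3, with limma voom, and with the replicate number as a block, with or without the length-GC offset. Slc25a53 stayed near 1 CPM (0.882 ± 0.336 and 1.11 ± 0.456).

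The 7 members that were not tested were at or near 0. Slc25a18, Slc25a41 and Slc25a54 had 0 counts in all 8 libraries, which allows up to 0.0885 to 0.185 CPM per library (3 counts of its total, counting error only). Slc25a2, Slc25a21, Slc25a31 and Slc25a48 had 0 to 9 counts per library. Slc25a31 is the ADP/ATP carrier of sperm cells, and Slc25a41 and Slc25a54 are relatives of the ATP-Mg carriers.

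**Figure D3:**
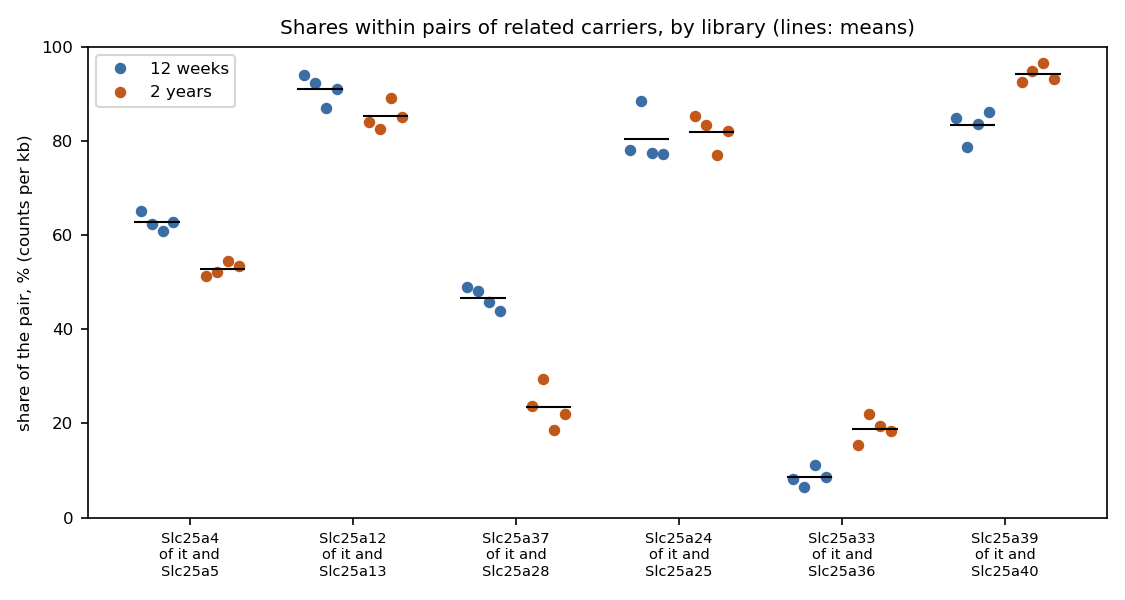
Share of the first-named gene in 6 pairs of related carriers, in percent of counts per kb of transcript, by library, with lines at the group means; blue is 12 weeks and orange 2 years. The groups do not overlap for Slc25a4, Slc25a37, Slc25a33 and Slc25a39, and they overlap for Slc25a12 and Slc25a24.

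Fold changes within the family depended on transcript length as they did across all genes. Of 16 tested members with transcripts shorter than 2000 nt, 6 were higher and 2 lower, with a median log2 fold change of 0.32. Of the 24 longer ones, 3 were higher and 7 lower, with a median of -0.13. Over all genes tested, of any length, 25.8% were higher and 26.2% lower. Spearman's correlation of fold change with length was -0.38 over the 40 members and -0.42 over the 13618 genes with a length, a description over genes that share the same 8 libraries. The offset that removes each library's trend on length and GC left 5 members higher and 11 lower, where 22.7% of all genes were higher and 28% lower. With this offset and the replicate number as a block, 4 were higher and 12 lower, against 19.8% and 24.8% of all genes; with the block alone 8 were higher and 9 lower, against 22.3% and 23.8%. With the length-GC offset alone, all 9 decreases kept their call, and of the 9 increases those of Slc25a10, Slc25a11, Slc25a30, Slc25a39 and Slc25a45 kept theirs. Such an offset would also remove a true difference that runs along length.

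**Figure D4:**
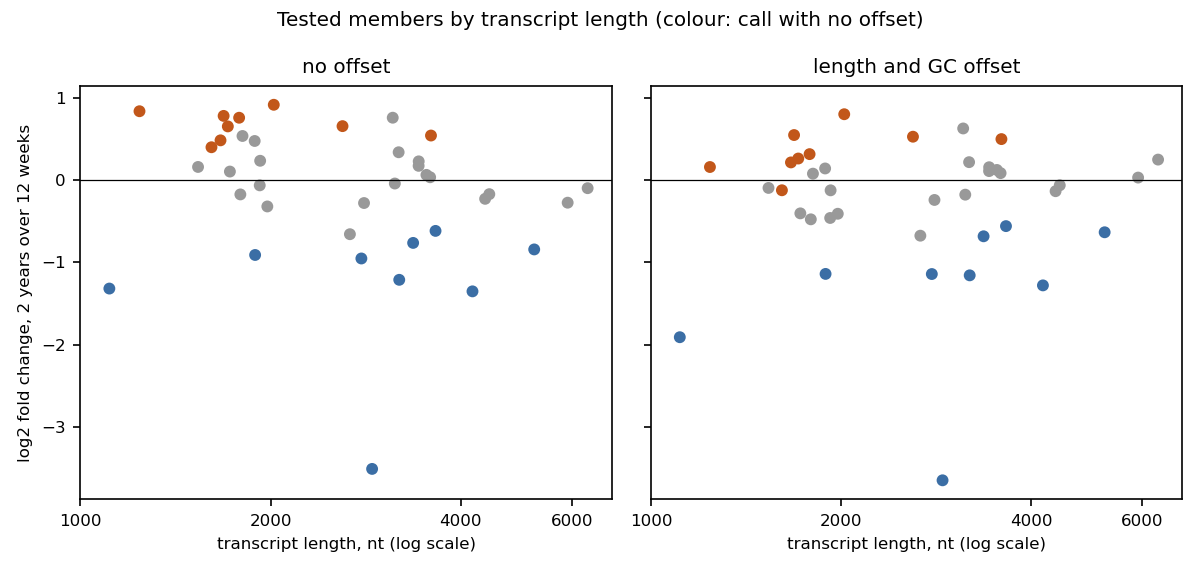
Log2 fold change of 39 of the 40 tested members against transcript length in nt (log scale), without (left) and with (right) the length-GC offset; colours give the call without the offset, orange higher and blue lower. Over all 40, the medians of members shorter and longer than 2000 nt are 0.32 and -0.13 on the left and -0.11 and -0.08 on the right.

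Relatives under other symbols and other mitochondrial genes were set beside the members. Mtch1, an outer membrane relative, rose from 124 ± 18.7 to 236 ± 57.0 CPM (1.9-fold, adjusted p = 0.00161). Mtch2, which inserts proteins into the outer membrane, rose from 68.1 ± 4.18 to 86.1 ± 11.1 CPM (1.26-fold, adjusted p = 0.0406) but was at 0.09 and not called with the offset. Of 18 other inner membrane transporters 6 were higher and 2 lower, where 25.8% of all genes tested were higher and 26.2% lower. Mcub, the inhibitory subunit of the calcium uniporter, went up 3.96-fold, from 6.20 ± 1.10 to 24.6 ± 3.07 CPM, with an adjusted p of 5.48e-06. The sideroflexin Sfxn4 fell 1.95-fold (adjusted p = 0.00112).

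Of 16 genes of the machinery that imports carrier proteins, 10 were higher and 0 lower, with a median log2 fold change of 0.67. Beside this list and those below, 25.8% of all genes tested were higher and 26.2% lower (22.7% and 28% with the length-GC offset). Tomm7 and Tomm22, subunits of the outer membrane entry gate, rose 2.06-fold and 1.71-fold, and the small chaperone subunit Timm8b rose 1.97-fold (adjusted p 0.000312 to 0.000633). These transcripts are short (median 1607.5 nt for the list), and with the length-GC offset 2 were higher and 2 lower, with a median of -0.02. Of 3 porins, the outer membrane channels, Vdac2 and Vdac3 rose 1.47-fold and 1.52-fold and neither was called with the offset. Of 18 TCA cycle enzymes 4 were higher and 0 lower (1 and 5 with the offset). Sdhc, a succinate dehydrogenase subunit, rose 1.58-fold with an adjusted p of 0.00205 and kept 0.56 with the offset. The TCA list summed to 1769, 1754, 2369 and 1879 CPM in 12 weeks replicates 1 to 4 and to between 2005 and 2272 CPM at 2 years. Of 9 regulators of mitochondrial biogenesis 2 were lower: Ppargc1a (PGC-1alpha) fell 2.75-fold and Pprc1 1.46-fold (adjusted p = 0.00522 and 0.014), and Pprc1 was not called with the offset. Ppargc1a was at 3.41, 5.35, 10.7 and 8.27 CPM in 12 weeks replicates 1 to 4 and at 2.34, 1.58, 3.45 and 2.78 CPM in 2 years replicates 1 to 4, with overlapping groups. It is also abundant in heart muscle and brown fat. Heart muscle markers summed to 328, 327, 1428 and 275 CPM in the same 12-week libraries and to 216, 143, 192 and 195 CPM in the 2-year ones. The sum includes Ryr2, at 163 ± 18.3 CPM at 12 weeks and 24.7 ± 8.46 CPM at 2 years. It also includes Tnnt2, at 72.1 ± 31.5 and 105 ± 26.6 CPM. A sum follows its most abundant genes, so it does not give the amount of heart muscle in each library. The lowest 12-week sum was in replicate 4, where Ppargc1a was at 8.27 CPM. The part of heart muscle and brown fat in the Ppargc1a difference was not tested.

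**Figure D5:**
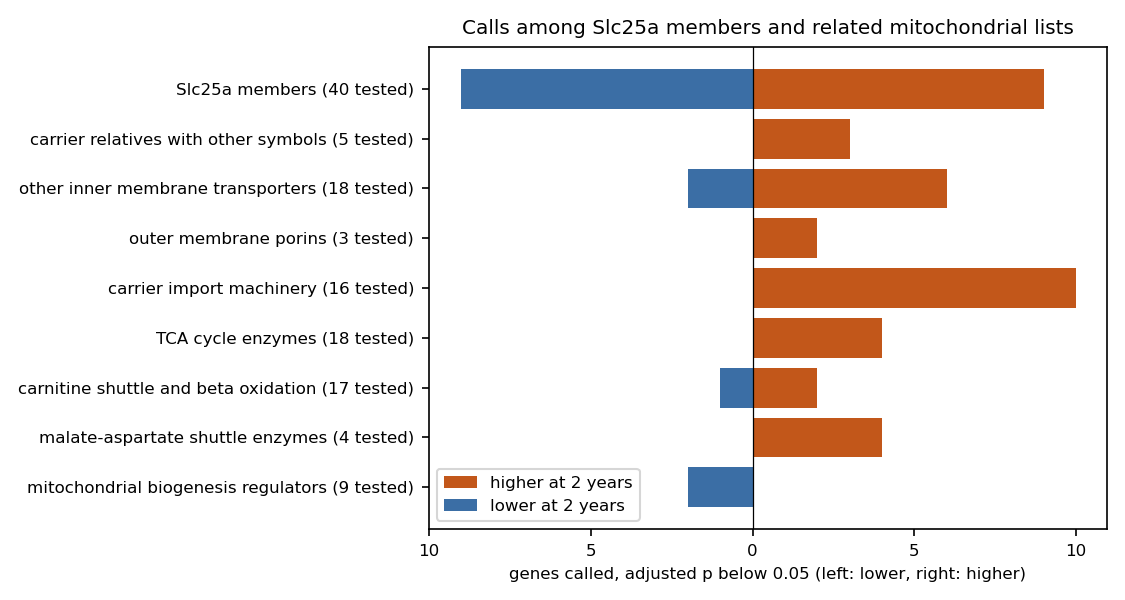
Number of genes called lower (left of 0, blue) and higher (right of 0, orange) at 2 years among the Slc25a members and 8 lists of related mitochondrial genes, with the number tested in brackets. The members divide 9 to 9, and the carrier import list has 10 higher and 0 lower. Over all genes tested 25.8% were higher and 26.2% lower.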

How the data were processed

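Bulk RNA sequencing of aorta from 4 mice at 12 weeks and 4 at 2 years was analysed. The deposited tables hold raw counts per gene symbol, per the labels and the file headers. The submitters' processing notes name the build GRCm39; aligner, counter, annotation and strand setting are not stated there, so overlapping and near-identical genes are uncertain. Totals were 16251986 to 33880690 counts per library.

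Genes passing edgeR's filterByExpr (13978) were tested with the quasi-likelihood F test (robust, TMM scaling, age as the only term) and Benjamini-Hochberg adjustment over all of them; calls are at adjusted p below 0.05. Each SE is the fold change over the root of its F. CPM used TMM-scaled library sizes. Transcript length and GC came by symbol from GENCODE M21 (GRCm38), longest coding transcript, for all 47 members and 97.4% of tested genes; the offset removes each library's trend on both (natural splines, 4 degrees of freedom). Sums and shares were compared by exact permutation over 70 assignments. Each library is taken as 1 mouse, as the labels number them, and p-values measure the spread between these libraries. Pairs within a group differed by 23.5 to 150.5 times counting variance, more than repeat sequencing of 1 library would give. That does not show that they come from separate mice. The pipeline was tested on simulated data without a length trend, so that test does not cover the length trend of these libraries.

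Members with values in every library are the 6 called with the largest change in each direction, the 8 most abundant and 10 fixed by name; the rest are summarised. Of the lists, up to 3 called genes are named. Values of 1 member that was not called, and of 1 listed gene, are not reported here; both stay in the counts. Members and lists were chosen with earlier results of these data known. Motifs were searched after the values had been seen. The tools were edgeR 4.0.16, DESeq2 1.42.0 and limma 3.58.1 under R 4.3.3.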

Additional observations from a re-analysis of the deposited data

Results flagged for a closer look

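In a group of 4 libraries a value is given here when it stands apart from the other 3 by more than Dixon's 95% limit, which chance passes in about 1 of 20 groups; 94 groups of members, shares and the sum were looked at and 5 values passed. In 2 years replicate 2, Slc25a20 was at 45.8 CPM, Slc25a33 at 7.16 CPM and Slc25a37 at 18.6 CPM, each above the other 3 libraries of its age. That library also had the highest red blood cell sum, 8029 CPM; its part was not tested. In 12 weeks replicate 2, Slc25a11 was low at 39.1 CPM, and the share of Slc25a24 with Slc25a25 was high at 88.5%.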

How the results depend on the processing

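Each result was recomputed under 18 alternatives: other scalings, filters, tools, the replicate block, the length-GC offset and libraries left out. The number of members higher (9) was 5 with the length-GC offset and 4 with the offset and the replicate block; the number lower was 11 and 12 there. Under the other alternatives 8 to 11 were higher and 8 to 10 lower. Slc25a3 reversed to -0.12 with the offset and -0.13 with offset and block, and Slc25a17 to -0.40 and -0.42; the cause was not tested. Of the 18 called members, 11 were called under every alternative. Of the 22 members not called, 15 were called under no alternative and 9 changed sign without a call. With 1 library left out, calls were gained by Slc25a14 and Slc25a32 without 12 weeks replicate 1, Slc25a22 without 12 weeks replicate 2 and Slc25a13 without 12 weeks replicate 3. Slc25a32 gained a call without 2 years replicate 2, and Slc25a13, Slc25a14 and Slc25a34 did without 2 years replicate 3. Slc25a14 was also called higher with upper quartile scaling, the DESeq2 test and limma voom. Of all genes, 20.8% to 29.9% were higher and 21.4% to 27.4% lower under the alternatives with neither offset nor block. Deviations from the age means correlated at -0.31, -0.12, 0.05 and 0.03 between same-numbered mice and at -0.12 to 0.28 between differently numbered ones. So few values cannot decide whether the numbers pair samples. With the replicate block 8 members were higher and 9 lower. Slc25a3 and Slc25a47 were not called there, and Slc25a34 was called lower. The summed level differed by 123 CPM, and by 46.3 to 179 CPM with 1 library left out (exact permutation p 0.171 to 0.571); per kb the difference was 6.26. Adjusted over the 6 shares that can vary, chosen after seeing the data, the share differences of Slc25a4 (-9.96 percentage points), Slc25a37 (-23.2), Slc25a33 (10.1) and Slc25a39 (10.9) had p = 0.0429 by the exact permutation test, against 0.05 over 7. Depth limits members under about 1 CPM.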
